A study of Mus musculus with 6 samples.

Results

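Mt1 and Mt2, the metallothionein genes, were described together with 8 genes of the glucocorticoid pathway in the RNA of murine tissues around engineered cartilage. The 8 were the receptor gene Nr3c1 and the genes Fkbp5, Tsc22d3, Zbtb16, Klf9, Per1, Sgk1 and Glul, which glucocorticoids induce in many tissues. All 10 names were found among the 48440 genes of the count table, and all 10 were among the 15257 genes that passed the filter on low counts. The genes were proposed by name when differences between these same 6 libraries were already known. They were thus selected on the contrast between the groups, so their differences are a description with an error. Counts that rest on a p-value, and the study's criterion, are printed for these genes only as labels of the same values and are not read as tests.

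RNA had been sequenced from 3 samples with 0%-Axitinib and 3 with 3%-Axitinib, where the number is the mass share of axitinib, an inhibitor of VEGF receptor kinases, in the membrane. All hosts were male BALB/c nude mice, which lack a normal thymus, and all samples were taken 12 weeks after subcutaneous implantation. The labels give no age, and the supplement gives 6 to 8 weeks for the nude mice when bought. In both groups, an electrospun membrane of PCL and collagen enclosed cartilage engineered from rabbit bone marrow stem cells. This construct had been cultured for 4 weeks in a chondrogenic medium that held dexamethasone, a synthetic glucocorticoid, as well as TGF-β1 and IGF1. The labels call the samples without drug untreated, here read as 0%-Axitinib, since membranes holding 0% and 3% are the ones that the protocol and design text describe. The supplement states that each mouse carried a pair of constructs of one group. Whether each sample of a group had its own mouse is therefore not known, and the errors concern these samples only.

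Glucocorticoids bind the receptor encoded by Nr3c1, which then leaves its chaperone complex, enters the nucleus and acts on genes through short palindromic DNA motifs. Several of the genes it induces feed back on the pathway, and others carry metabolic and anti-inflammatory effects of the hormone. Metallothioneins are small cysteine-rich proteins that bind zinc and copper, and their genes respond to zinc through the factor MTF1 and also to glucocorticoids, oxidants and inflammatory signals. Circulating glucocorticoids and many of their target genes follow the time of day. The hour at which the tissues were taken is not given in the sources used here.

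Gene counts summed to between 9225518 and 18403795 in a sample. A count of 3, used as the limit of detection, corresponded to between 0.156 and 0.329 CPM (TMM-normalized, counts scaled to library size). Every one of the 10 genes lay far above this limit, with a lowest count of 28 (Zbtb16 in 0%-Axitinib replicate 3). Reads that could not be mapped to the mouse genome made up 5.47%, 3.84% and 14.9% of the 0%-Axitinib libraries and 48.4%, 29.2% and 16.8% of the 3%-Axitinib libraries, in the order of replicates 1 to 3. Their mean was 8.08% ± 5.99 (SD, n = 3) against 31.5% ± 15.9 (SD, n = 3) (exact two-sided permutation test, p = 0.1, the lowest value this test can reach with groups of 3). The part of this difference, and of any rabbit RNA counted on mouse genes, in the values below was not tested.

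The metallothionein genes held the largest differences among the 10, and for both the groups were wholly apart, with the higher values in the 3%-Axitinib group. Fkbp5 and Per1 were also higher without overlap, and Nr3c1 was lower without overlap. Glul and Tsc22d3 were higher on average with overlapping groups, while Zbtb16, Klf9 and Sgk1 spread more within the groups than between them. The study's criterion was 1.5-fold or more together with a P of 0.05 or less, here read as unadjusted. Among 15257 tested genes, 1456 met it here as higher and 1785 as lower. The paper reports fewer genes, with more of them higher than lower, so the shares below are those of the present fit. Mt1, Mt2, Fkbp5, Per1 and Glul, 5 of the 10 genes, met it in the direction of higher expression, against 9.54% of all tested genes. It was met in the direction of lower expression by 0 of the 10 genes, against 11.7% of all tested genes. Groups did not overlap for 4 higher genes (14.7% of all tested genes) and for 1 lower gene (16.6%). With edgeR, 0 of the 10 genes had an adjusted p of at most 0.05, a call made for 0.00655% of all tested genes, while 6 of the 10 had an unadjusted p of at most 0.05, against 23.5% of all tested genes. DESeq2's Wald test, which covered 26504 genes, gave 4 adjusted calls among the 10 (Mt1, Mt2, Fkbp5 and Per1), against 6.43% of its genes. These were not filtered on low counts, so that share has another base than those of edgeR. With edgeR, adjusted calls among the 10 numbered 3 (Mt1, Mt2 and Fkbp5) without 0%-Axitinib replicate 3 (7.98% of all genes tested then), 1 (Mt1) without 3%-Axitinib replicate 2 (0.364%), 2 (Mt1 and Mt2) with no filter (0.0559%) and 5 without both of these libraries (10.2%). Nothing is read from these counts, because the genes were selected on the same contrast. The median log2 fold change of the 10 genes was 0.79, and that of all tested genes was -0.03.

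**Figure D1:**
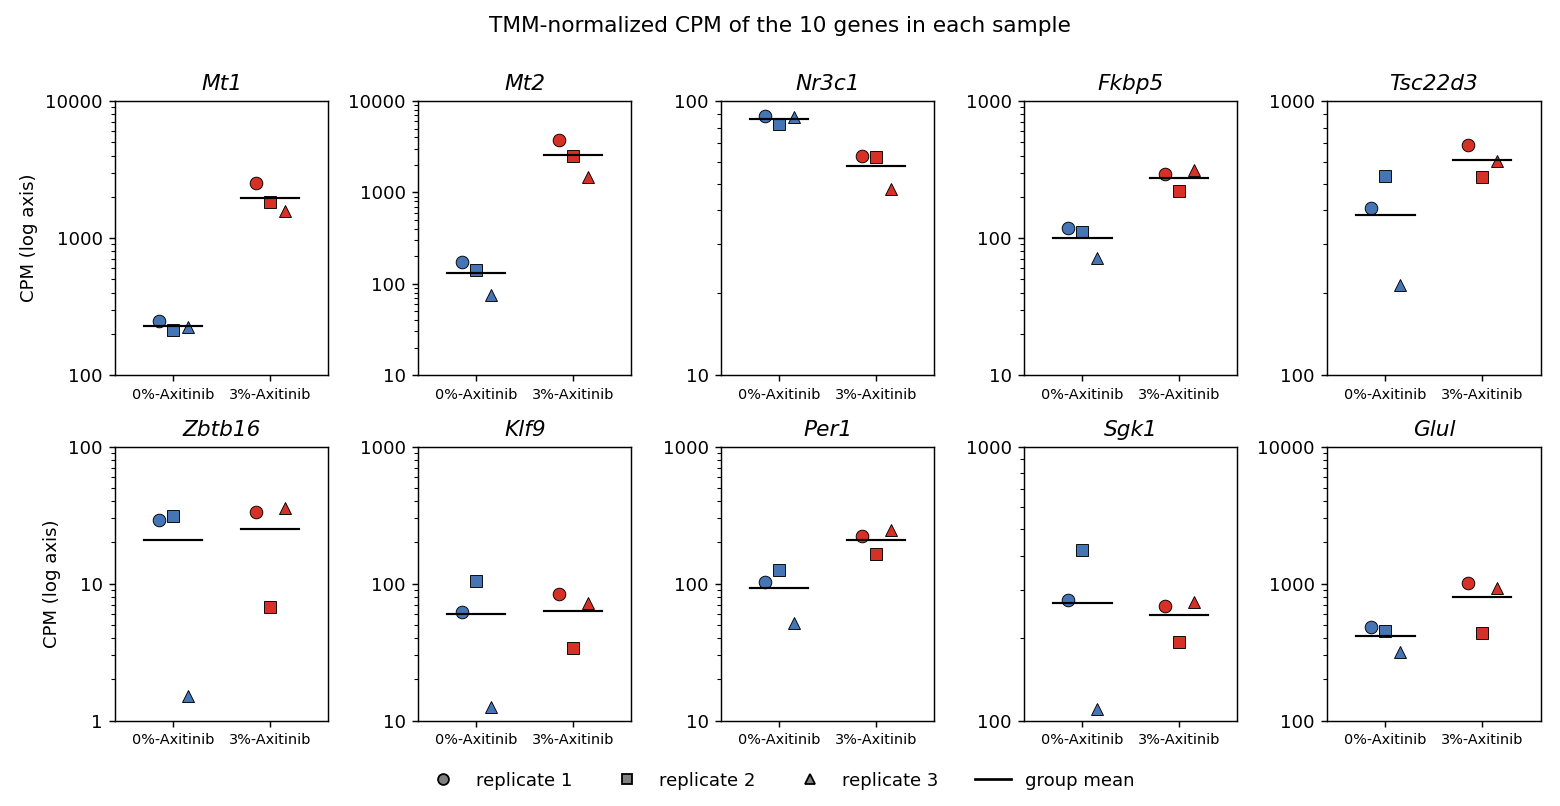
CPM of the 10 genes in each sample on log axes, with 1 panel per gene, blue symbols for 0%-Axitinib, red symbols for 3%-Axitinib, a symbol shape per replicate number and a black line at each group mean. The groups are apart for Mt1, Mt2, Nr3c1, Fkbp5 and Per1, and 0%-Axitinib replicate 3 (blue triangle) is the lowest sample for 8 of the 10 genes.

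Mt1 encodes a metallothionein found in most mouse tissues. Its level was 248, 214 and 223 CPM in 0%-Axitinib replicates 1 to 3 and 2501, 1826 and 1569.7 CPM in 3%-Axitinib replicates 1 to 3. The lowest 3%-Axitinib sample thus held 632% of the highest 0%-Axitinib sample, and the 3 samples without drug were close to each other. The fitted difference was a log2 fold change of 3.11 ± 0.32 (SE, n = 3 per group), or 8.61-fold. Mt2 encodes a second isoform of nearly the same size, and its level was 174, 140.5 and 75.7 CPM without drug and 3719.8, 2496 and 1486 CPM with 3% of the drug. Here the lowest 3%-Axitinib sample held 855% of the highest 0%-Axitinib sample, and each group varied more than for Mt1. The log2 fold change of Mt2 was 4.30 ± 0.53 (SE, n = 3 per group), or 19.8-fold. Leaving out any sample in turn kept the log2 fold change between 2.90 and 3.24 for Mt1 and between 3.93 and 4.57 for Mt2.

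The balance between the isoforms differed as well. There were 0.700, 0.656 and 0.340 Mt2 reads for each Mt1 read in the 0%-Axitinib samples and 1.49, 1.37 and 0.947 in the 3%-Axitinib samples. Every sample with the drug thus had a larger ratio than any sample without it. Together, the metallothionein genes took 0.0457%, 0.0365% and 0.0306% of all gene reads without drug and 0.615%, 0.407% and 0.288% with 3% of the drug. Ranked by TPM (counts per length of the gene's exons, scaled to the same sum in each sample), Mt2 was number 135, 156 and 398 among all genes in the 0%-Axitinib samples and number 2, 11 and 13 in the 3%-Axitinib samples. Mt1 moved from ranks 206, 242 and 299 to ranks 15, 27 and 27. The exon length used was 588 bases for Mt2 and 1246 bases for Mt1, which is the whole span of Mt1. The ranks of Mt1 and Mt2 relative to each other depend on these lengths. The genes are neighbours on the plus strand of chromosome 8 of GRCm38, Mt2 at chr8:94172664-94173568 and Mt1 at chr8:94179082-94180327, with 5513 bases between them. Exons of Mt2 overlap those of the antisense gene Gm45774, which is not among the genes of the count table. Since the strand used in counting is not stated, reads of the pair cannot be told apart.

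Nr3c1 encodes the glucocorticoid receptor itself. Its level was 88.1, 82.5 and 87.3 CPM without drug and 63.2, 62.3 and 47.7 CPM with 3% of the drug. All 3 samples with the drug were lower than all 3 without it, and the samples without drug differed little. The log2 fold change was -0.57 ± 0.18 (SE, n = 3 per group), or 1.49-fold lower, just short of the 1.5-fold limit of the criterion. The criterion was met for Nr3c1 without 0%-Axitinib replicate 2 (log2 fold change -0.61), without 3%-Axitinib replicate 1 (-0.64) and without 3%-Axitinib replicate 2 (-0.63). It was also met with total counts (-0.70), with DESeq2's Wald test (-0.59), with no filter (-0.60), with at least 10 counts in every sample (-0.59) and without both libraries named below (-0.62). In bulk tissue, fewer cells of a type and less RNA per cell cannot be told apart.

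Fkbp5 encodes an immunophilin of the receptor's chaperone complex that lowers its affinity for hormone, and its induction is a widely used readout of receptor activity. It was at 118, 109.9 and 71.3 CPM without drug and at 292, 219 and 313 CPM with 3% of the drug. The lowest 3%-Axitinib sample held 186% of the highest 0%-Axitinib sample, so the groups were apart. The log2 fold change was 1.46 ± 0.28 (SE, n = 3 per group), or 2.76-fold, and it stayed at 1.27 or more when each sample was left out in turn. Per1 encodes a repressor of the molecular clock that glucocorticoids also induce directly. Its level was 103, 127 and 51.3 CPM without drug and 221, 163 and 245 CPM with it. The groups did not overlap, but the gap was narrower than for Fkbp5, with the lowest sample with drug at 129% of the highest without it. The log2 fold change of Per1 was 1.16 ± 0.36 (SE, n = 3 per group), or 2.24-fold, and without 3%-Axitinib replicate 3 it was 1.03 and no longer met the criterion.

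Glul encodes glutamine synthetase, which glucocorticoids induce in skeletal muscle and other tissues. It was at 479, 453 and 317 CPM without drug and at 1004, 437 and 935 CPM with it. The 3%-Axitinib samples 1 and 3 were higher than every sample without drug, whereas replicate 2 lay among those without drug. The log2 fold change was 0.93 ± 0.38 (SE, n = 3 per group), or 1.90-fold. It met the criterion with all samples and without 3%-Axitinib replicate 2 (1.22), but not without any other single sample, where it lay between 0.72 and 1.04. It was also not met with total counts (0.80) and with the muscle covariate (0.21). Exons of Glul overlap those of Teddm2 on the other strand, to which at most 25 reads were assigned in a sample. Tsc22d3 encodes GILZ, a leucine zipper protein that mediates anti-inflammatory effects of glucocorticoids. Its level was 408, 535 and 212 CPM without drug and 688, 530.3 and 604 CPM with it. The groups overlapped by a narrow margin, since the highest sample without drug and the lowest with drug were nearly equal. The log2 fold change of Tsc22d3 was 0.66 ± 0.37 (SE, n = 3 per group), without 0%-Axitinib replicate 2 it was 0.97 and met the criterion, and without 0%-Axitinib replicate 3 it was 0.36 and did not.

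Zbtb16 encodes a zinc finger repressor, PLZF, whose gene responds steeply to glucocorticoids in many cell types. It was at 29.0, 31.3 and 1.52 CPM without drug and at 33.4, 6.72 and 35.5 CPM with it. Each group held 1 sample far lower than its other samples, and the groups overlapped through 3%-Axitinib replicate 2, while replicates 1 and 3 with drug were slightly above every sample without it. Without 3%-Axitinib replicate 2, the groups of Zbtb16 did not overlap (log2 fold change 0.73). Klf9, a Krüppel-like repressor that the receptor induces directly, was at 61.8, 104 and 12.5 CPM without drug and at 84.1, 33.6 and 71.9 CPM with it. The same samples, 0%-Axitinib replicate 3 and 3%-Axitinib replicate 2, were again the low ones. Sgk1, a kinase that promotes sodium uptake and is induced by glucocorticoids and mineralocorticoids, was at 276, 421 and 109.8 CPM without drug and at 262, 194 and 272 CPM with it. Its 3%-Axitinib values all fell inside the range of the 0%-Axitinib values. The log2 fold changes were 0.29 ± 1.00 for Zbtb16, 0.08 ± 0.70 for Klf9 and -0.15 ± 0.46 for Sgk1 (SE, n = 3 per group), so none of these differences exceeded its error. Without 0%-Axitinib replicate 3 all 3 were negative, at -0.26, -0.40 and -0.53, and without 0%-Axitinib replicate 2 all 3 were positive, at 0.72 for Zbtb16, 0.76 for Klf9 and 0.32 for Sgk1. That replicate, the highest of its group for all 3, was also the library in which keratinocyte markers summed to 907 CPM, against at most 8.33 CPM in any other. Klf9 was also negative without 3%-Axitinib replicate 1 (-0.18) or 3 (-0.03) and with total counts (-0.04), and Zbtb16 without 3%-Axitinib replicate 3 (-0.06).

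**Figure D2:**
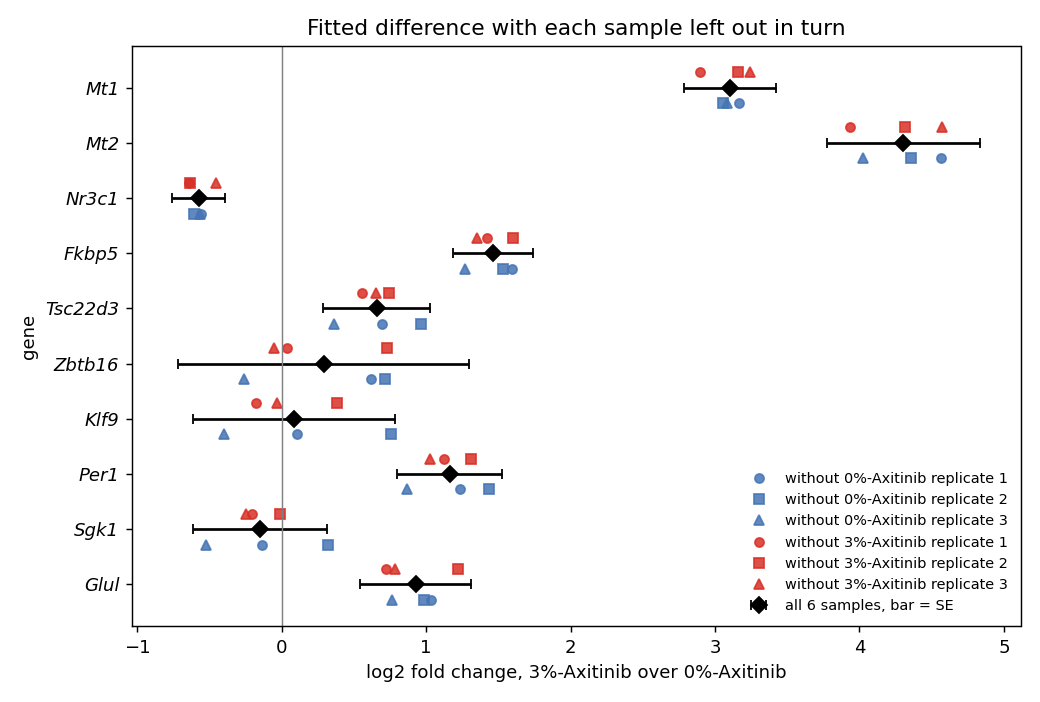
Log2 fold change of 3%-Axitinib over 0%-Axitinib for each gene, fitted on all 6 samples (black diamonds, bars are standard errors) and after omission of 1 sample at a time (blue for a 0%-Axitinib sample left out, red for a 3%-Axitinib sample). Mt1, Mt2, Fkbp5, Per1, Glul and Tsc22d3 stay above 0 and Nr3c1 stays below 0, while Zbtb16, Klf9 and Sgk1 lie on both sides of 0.

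A single library in each group was low for the 7 induced genes among the 10. In the 0%-Axitinib group, replicate 3 was the lowest sample for Mt2 and for all 7 induced genes, which makes 8 of the 10, whereas it was the lowest of its group for 42.6% of all tested genes. In the 3%-Axitinib group, replicate 2 was the lowest for the same 7 induced genes, against 35.5% of all tested genes, and for neither metallothionein gene. Relative to the mean of replicates 1 and 2, 0%-Axitinib replicate 3 held 5.02% of Zbtb16, 31.5% of Sgk1, 44.7% of Per1, 45.0% of Tsc22d3, 48.2% of Mt2, 62.6% of Fkbp5 and 68.1% of Glul, but 96.3% of Mt1 and 102% of Nr3c1. Klf9 was there at 12.5 CPM against 61.8 and 104 CPM, the next lowest share after Zbtb16. Relative to the mean of replicates 1 and 3, 3%-Axitinib replicate 2 held 19.5% of Zbtb16, 43.1% of Klf9 and 45.1% of Glul. It held 70.2% of Per1, 72.5% of Fkbp5, 72.5% of Sgk1 and 82.1% of Tsc22d3, and 89.7% of Mt1, 95.9% of Mt2 and 112% of Nr3c1. Zbtb16 and Klf9 thus had the lowest shares of the 7 in both of these libraries. Over the 26 other induced genes described below, 0%-Axitinib replicate 3 was the lowest of its group for 13 and the highest for 8, and 3%-Axitinib replicate 2 was the lowest of its group for 21 and the highest for 2. Without both libraries, an alternative chosen after seeing the data with 2 samples against 2, the log2 fold changes were 3.14 for Mt1, 4.05 for Mt2, 1.41 for Fkbp5, 1.06 for Glul and 1.02 for Per1, and the criterion was met by the same 5 genes (15.2% of all genes tested then met it as higher) and by Nr3c1 (-0.62, 14.5% as lower).

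**Figure D3:**
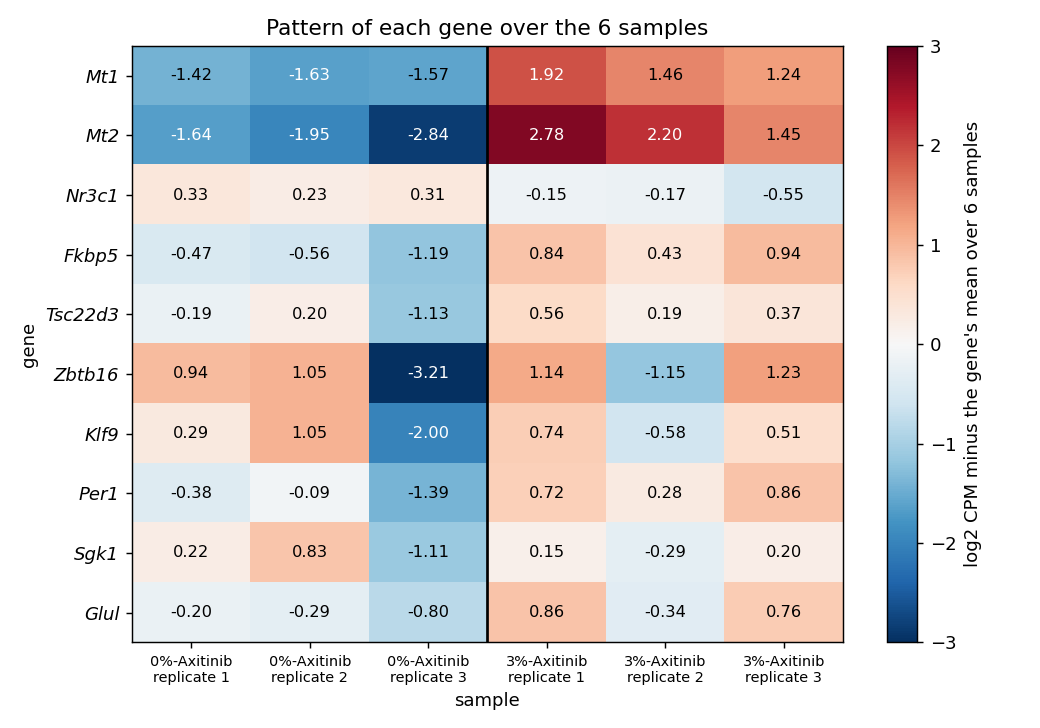
Log2 CPM of each gene in each sample after subtraction of the gene's mean over the 6 samples, with red for values above and blue for values below that mean, and a black line between the groups. Mt1 and Mt2 split by group, and Zbtb16 and Klf9 are lowest in 0%-Axitinib replicate 3 and next lowest in 3%-Axitinib replicate 2.

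The genes could be ordered by level only per length, in TPM. In the 3%-Axitinib group the order was Mt2 at 12039.9 ± 5701 TPM (SD, n = 3), Mt1 at 4332 ± 1244, Glul at 654 ± 268, Tsc22d3 at 383 ± 64.3, Sgk1 at 135 ± 25.9, Per1 at 102 ± 21.1, Fkbp5 at 79.2 ± 15.1, Klf9 at 36.1 ± 15.9, Nr3c1 at 20.6 ± 3.60 and Zbtb16 at 13.1 ± 8.42. Samples of neighbours in this order did not overlap between Mt2 and Mt1, Mt1 and Glul, Tsc22d3 and Sgk1, and Fkbp5 and Klf9, and overlapped for the other neighbours. The order of Mt2 and Mt1 rests on the lengths used, 588 and 1246 bases, the latter being the whole span of Mt1. In CPM, which take no account of length, Mt1 and Mt2 overlapped in the 3%-Axitinib group. Mt1 had the higher CPM in each 0%-Axitinib sample. In the 0%-Axitinib group, Mt2 at 724 ± 366 TPM, Mt1 at 577 ± 127, Glul at 403 ± 143 and Tsc22d3 at 290.2 ± 152 again came first (SD, n = 3), but there every pair of neighbours overlapped. Fkbp5 was number 9 of the 10 genes without drug, at 34.0 ± 13.3 TPM, and number 7 with it.

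Patterns over the 6 samples were compared as the root mean square difference of log2 CPM after centring each gene on its mean, where 0 means the same pattern. Among the 10 genes, the closest pair was Fkbp5 and Per1 with 0.23, followed by Tsc22d3 and Per1 with 0.28. Mt1 and Mt2 differed by 0.72, and Mt2 varied over 5.62 log2 units and Mt1 over 3.55. Outside the 10 genes, among 14329 tested genes with a mean of at least 1 CPM, Mt1 was most like Slc38a4 (0.26), Gm10309 (0.37) and Tcea3 (0.46). Mt2 was most like Serpina3m (0.47), Bdkrb1 (0.53) and Serpina3n (0.62), of which Serpina3n was at 219, 185 and 59.3 CPM without drug and at 2088, 1374 and 629.6 CPM with it. Zbtb16 was most like Gpr17 (0.38), Dcbld2 (0.55) and Wnk2 (0.55), but Gpr17 was at 1 count in 0%-Axitinib replicate 3, under the limit of detection, so its value there is set by the prior count. These values describe 6 samples in 2 groups, so a gene that differs between the groups in the same direction is close by that alone.

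Of 26 other genes that glucocorticoids induce, all tested, 8 met the criterion as higher (9.54% of all tested genes did) and 0 as lower (11.7%), and the list's median log2 fold change was 0.31 against -0.03 for all tested genes. With edgeR, 0 of the 26 had an adjusted p of at most 0.05. Crispld2, a secreted protein gene known as a direct receptor target, was at 60.3, 45.7 and 64.0 CPM without drug and at 209.8, 202 and 148 CPM with it (log2 fold change 1.72 ± 0.24, SE, adjusted p = 0.0965). Ddit4, an inhibitor of mTORC1 signalling, was at 48.5, 42.6 and 47.1 CPM without drug and at 192, 75.1 and 149.6 CPM with it. These genes, like Fkbp5, were higher in all 3 samples with drug, and neither was low in 0%-Axitinib replicate 3. Trim63, a ubiquitin ligase of muscle atrophy, was at 1.09, 0.116 and 0.0542 CPM without drug, with 2 counts and 1 count in replicates 2 and 3, and at 502, 2.54 and 259 CPM with it. The other 5 higher genes, named after their values were seen, were Klf15, Pdk4, Hif3a, Usp2 and Arrdc2. Pdk4, at 543, 10.8 and 217 CPM with drug, lay within the range of the samples without drug in 3%-Axitinib replicate 2. The median of the list was 0.07 without 3%-Axitinib replicate 1, 0.51 without 3%-Axitinib replicate 2, 0.60 without both low libraries, 0.12 with at least 10 counts in every sample, 0.19 with total counts and -0.33 with the mean muscle level as a covariate.

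Of 12 inflammatory genes that glucocorticoids repress, 11 were tested, 4 met the criterion as lower (11.7% of all tested genes did) and 1 as higher (9.54%), and their median log2 fold change was -0.36. The median was -0.21 without 3%-Axitinib replicate 2, -1.05 without 3%-Axitinib replicate 1, -0.57 without 3%-Axitinib replicate 3 and -1.69 with the mean muscle level as a covariate. The lower genes were the chemokines Cxcl10 and Ccl5 and the cytokines Tnf and Il1b, the last named after its values were seen. The higher gene was the monocyte chemokine Ccl2. It was at 28.5, 15.9 and 23.1 CPM without drug and at 29.7, 65.8 and 32.4 CPM with it, without overlap. Cxcl10 was at 1.82, 1.80 and 21.8 CPM without drug and at 0.677 ± 0.735 CPM (SD, n = 3) with it, with 1 count in 3%-Axitinib replicate 2. Ccl5 was at 4.01, 7.85 and 62.6 CPM without drug and at 3.98 ± 0.877 CPM (SD, n = 3) with it. Tnf was at 9.42, 9.42 and 22.2 CPM without drug and at 5.76 ± 2.16 CPM (SD, n = 3) with it. Il1b was at 10.7, 3.37 and 32.2 CPM without drug and at 3.63 ± 1.78 CPM (SD, n = 3) with it. All 4 lower genes were thus highest in 0%-Axitinib replicate 3, and the groups of Ccl5 and Il1b overlapped. Lcn2, an acute phase gene of the list of induced genes that was named after its values were seen, was also highest there, at 1982 CPM against at most 25.9 CPM in the other 5 libraries.

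Among 14 genes of receptor partners and glucocorticoid metabolism, 13 were tested, and 1 met the criterion in each direction (9.54% of all tested genes did as higher and 11.7% as lower). The median log2 fold change was -0.11, with 0.00 without 0%-Axitinib replicate 3, 0.10 without both low libraries and -0.23 with total counts. The higher gene was Hsd11b1, the enzyme that regenerates active glucocorticoid inside cells, at 33.5, 44.3 and 39.9 CPM without drug and 136, 66.0 and 74.5 CPM with it (log2 fold change 1.23 ± 0.31, SE, adjusted p = 0.101). The lower gene was the coactivator Ncoa2, with a log2 fold change of -0.71 ± 0.22 (SE). Hsd11b2, the enzyme that inactivates glucocorticoid, had too few reads to be tested.

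Among 24 genes of zinc, copper and iron handling and oxidative defence, 22 were tested, 3 met the criterion as higher (9.54% of all tested genes did) and 3 as lower (11.7%). The median log2 fold change was -0.15, with 0.05 without 3%-Axitinib replicate 2, 0.01 with at least 10 counts in every sample and -0.27 with total counts. Slc30a1, the zinc exporter that MTF1 induces together with Mt1 and Mt2, was at 56.4, 73.3 and 52.8 CPM without drug and at 29.5, 28.9 and 30.0 CPM with it, a log2 fold change of -1.05 ± 0.19 (SE, adjusted p = 0.0965). Its groups did not overlap, in the direction opposite to the metallothionein genes. The iron exporter Slc40a1 (log2 fold change -3.91 ± 1.08) and the zinc importer Slc39a10 (-1.14 ± 0.37) were the other lower genes. The zinc and iron importer Slc39a14 (1.42 ± 0.44), the quinone reductase Nqo1 (1.35 ± 0.36) and the copper chaperone Ccs (0.63 ± 0.21) were the higher ones. Mtf1, Mt3 and Mt4 did not meet the rule for named genes and are given for their relation to Mt1 and Mt2. Mtf1 was at 16.9, 18.0 and 19.0 CPM without drug and at 13.0, 11.2 and 13.4 CPM with it, and did not meet the criterion. Mt3, the isoform best known from brain, was at 67.0, 68.3 and 92.8 CPM without drug and at 62.2, 117 and 122 CPM with it, with overlapping groups, and Mt4 was at 2 counts or fewer in each library.

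Because Per1 is also a clock gene, 17 other clock genes were set beside it, of which 6 met the criterion as higher (9.54% of all tested genes did) and 1 as lower (11.7%). Their median log2 fold change was 0.33, and 0.03 with the mean muscle level as a covariate. Nr1d1, a nuclear receptor that represses clock genes, rose in 3 of 3 samples with drug, from 11.9, 8.55 and 9.75 CPM to 132, 118 and 179 CPM (log2 fold change 3.83 ± 0.26, SE, edgeR adjusted p = 0.0229). It was the single gene of the table called after adjustment with edgeR on all samples, while DESeq2's Wald test called 1703 genes. With edgeR, 0 genes were called without 0%-Axitinib replicate 1 or 2, without 3%-Axitinib replicate 1 or 3, and with the muscle covariate. The output factor Dbp (log2 fold change 2.24 ± 0.24) and the repressor Ciart (1.52 ± 0.27) were the next by p, and Cry1, at 28.1, 31.4 and 24.7 CPM without drug and 13.7, 14.7 and 13.7 CPM with it, was the lower gene. The paralogs of Per1 did not share its difference, with log2 fold changes of -0.37 ± 0.39 for Per2 and 0.07 ± 0.26 for Per3. The part of the time of day in the value of Per1 was not tested.

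Marker genes of other cell types moved with the groups or with single libraries, and the counts of those meeting the criterion stand beside 9.54% (higher) and 11.7% (lower) of all tested genes. Of 28 skeletal muscle genes, 25 were tested and 23 met the criterion as higher, and their summed level was 205, 25.5 and 28.7 CPM without drug and 18637, 32.1 and 10447 CPM with it (exact two-sided permutation test, p = 0.2). The most abundant over all 6 samples, Acta1, reached 3913 and 1846 CPM in 3%-Axitinib replicates 1 and 3. It was at 0.0908 CPM in replicate 2, where 14 of the 28 genes were at 3 counts or fewer. In that library, Mt1 at 1826 CPM, Mt2 at 2496 CPM and Nr3c1 at 62.3 CPM lay between replicates 1 and 3. Fkbp5 at 219 CPM and Per1 at 163 CPM were above all samples without drug. Glul, Tsc22d3, Sgk1, Zbtb16 and Klf9 lay within the range of the samples without drug. With the mean muscle level as a covariate, Mt1 (log2 fold change 2.96), Mt2 (4.12) and Fkbp5 (1.16) met the criterion, and Per1 (0.87) and Glul (0.21) did not, while Zbtb16 (-1.30) and Klf9 (-0.64) turned negative. All 10 endothelial markers met the criterion as lower, with a summed level of 820.2, 538 and 961 CPM without drug and 178, 265 and 318 CPM with it, and Pecam1 the most abundant. Adipocyte markers were lower for 3 of 10 genes (768, 718 and 968 CPM against 442, 311 and 320.5 CPM in sum, Fabp4 the most abundant). Leukocyte markers summed to 9922, 11007 and 8150.0 CPM and to 7439, 8876 and 15308 CPM (2 of 9 tested lower, Lyz2 the most abundant). In sign, 6 of the 9 were lower and 3 higher. Their median log2 fold change was -0.54, with -0.18 without 0%-Axitinib replicate 3 and -0.01 without both low libraries. Ptprc, a leukocyte marker that the paper reports as lower, was named after its values were seen. It was at 215, 350 and 362 CPM without drug and at 79.5, 81.5 and 97.9 CPM with it, without overlap. Fibroblast markers summed to 27296, 13465 and 10745 CPM and to 23795, 70740.3 and 26537 CPM (1 of 8 higher, Col1a1 the most abundant over all 6 samples). The 7 chondrocyte markers found summed to 299, 185 and 141 CPM and to 284, 1137 and 443 CPM (5 of 6 tested higher, Comp the most abundant over all 6 samples). The part of these cell types in the levels of the 10 genes was not tested beyond the muscle covariate.

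The promoters of the genes were searched for the DNA motifs of both pathways, because Mt1, Mt2 and the induced genes are known for them. RefSeq promoters (250 bases before to 50 after the start, build GRCm38.p6) were found for 8 of the 10 genes, 16 promoters in all, and not for Zbtb16 and Nr3c1. The core of the metal response element (TGCACNC or TGCGCNC, both strands) occurred in 25.7% of all 32851 promoters, and 3 or more cores in 1.97% and 4 or more in 0.517%. The glucocorticoid motif was searched as GNACA and TGTNC with 3 bases between them, which reads the same on both strands, and occurred in 0.475% of all promoters. The Mt1 promoter held 3 metal cores, with first bases at -23, 3 and 21 from the start, and a glucocorticoid motif at -94. The Mt2 promoter held 4 metal cores, at -223, -128, -50 and 5, and no glucocorticoid motif. The start used for Mt2 lies 46 bases before the start of the annotated gene. For Mt1, the annotated start minus the start used was -7 bases. Positions hold for these starts only, and no other start of Mt1 or Mt2 was searched. A single metal core was found in a promoter of Glul, of Per1 and of Sgk1, a glucocorticoid motif in another promoter of Sgk1 at -188, and neither motif in those of Fkbp5, Tsc22d3 and Klf9. A match is a description of the letters and not a site, and its absence says only that these letters are not in this window. The promoters of Mt1 (chr8:94178839-94179138, plus strand) and Mt2 (chr8:94172368-94172667, plus strand) are shown because these genes held the largest differences, and that of Sgk1 (chr10:21993640-21993939, plus strand) because it shares the glucocorticoid motif with Mt1 while its level did not differ between the groups beyond its error. Capitals mark the matches, and no match overlaps another.
Mt1: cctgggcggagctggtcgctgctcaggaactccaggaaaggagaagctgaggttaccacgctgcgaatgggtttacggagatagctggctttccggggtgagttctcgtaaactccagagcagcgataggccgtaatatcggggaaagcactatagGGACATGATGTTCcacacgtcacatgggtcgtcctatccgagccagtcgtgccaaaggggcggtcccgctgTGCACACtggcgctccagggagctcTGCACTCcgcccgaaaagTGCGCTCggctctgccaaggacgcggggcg
Mt2: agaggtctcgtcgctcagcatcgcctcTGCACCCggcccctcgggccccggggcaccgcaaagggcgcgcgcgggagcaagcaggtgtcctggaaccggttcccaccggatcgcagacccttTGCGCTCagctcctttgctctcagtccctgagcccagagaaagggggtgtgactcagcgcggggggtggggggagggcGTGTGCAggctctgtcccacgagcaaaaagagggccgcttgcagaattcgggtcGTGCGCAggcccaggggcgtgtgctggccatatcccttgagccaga
Sgk1: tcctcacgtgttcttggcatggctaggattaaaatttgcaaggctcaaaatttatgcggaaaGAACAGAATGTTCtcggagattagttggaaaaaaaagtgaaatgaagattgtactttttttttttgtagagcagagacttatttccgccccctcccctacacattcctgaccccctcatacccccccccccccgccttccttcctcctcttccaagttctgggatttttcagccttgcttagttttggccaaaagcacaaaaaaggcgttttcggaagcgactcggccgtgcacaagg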

How the data were processed

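The authors filtered the reads with fastp, mapped them to the mouse genome (mm10) with STAR 2.5.2b and deposited unnormalized read counts per gene symbol. Neither the strand setting nor the annotation release is stated. Lines for reads assigned to no gene were kept out of library sizes; these were unmapped (3.84% to 48.4% of a library), multimapping (2.71% to 6.65%), without a feature (3.17% to 6.14%) or ambiguous (3.55% to 5.74%). The fit used edgeR 4.0.16 in R 4.3.3 (filterByExpr with minimum count 10 and minimum total 15, TMM, quasi-likelihood test, Benjamini-Hochberg adjustment over 15257 genes), tested on simulated data, and with DESeq2 1.42.0 as an alternative. The SE of a log2 fold change is its size divided by the square root of the F statistic of the edgeR fit. That fit moderates the spread of each gene over all tested genes. CPM are TMM-normalized, and log2 CPM used a prior count of 2. TPM used exon lengths of GENCODE vM21 (GRCm38), which matched 43974 of 48440 gene names (90.8%). Promoters were those of RefSeq (GRCm38.p6), searched for 8 of the 10 genes, with Nr3c1 left out and none found for Zbtb16. The 10 genes and all lists were chosen with earlier results of these data known. From each pathway list, up to 3 genes per direction with the smallest p among those meeting the criterion were named, from each cell type list the most abundant marker, and from all lists any adjusted call; other genes named are said to be so or stand for their relation to a member.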

Additional observations from a re-analysis of the deposited data

How the results depend on the processing

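Over 15 alternatives, Mt1, Mt2, Fkbp5, Per1, Glul and Tsc22d3 stayed higher and Nr3c1 stayed lower in the 3%-Axitinib group, while the sign of the log2 fold change turned in 3 alternatives for Zbtb16, in 6 for Klf9 and in 2 for Sgk1. Of 150 fitted values of the 10 genes, 149 moved by less than the SD between replicates, the exception being Glul with the muscle covariate (0.21). Mt1, Mt2 and Fkbp5 met the study's criterion in every alternative. The genes meeting it as higher numbered 3 with the muscle covariate (6.21% of all tested genes) and 3 to 5 with 1 sample left out (6.65% to 14.5%). Nr3c1 was the 1 gene meeting it as lower with total counts (16.0% of all tested genes), DESeq2's Wald test (8.39%) and no filter (9.44%). The shares of DESeq2's Wald test and of the fit with no filter also cover genes of low count. It was also the 1 such gene with at least 10 counts in every sample (12.0%) and without both low libraries (14.5%). With 1 sample left out, 0 to 1 genes met the criterion as lower (8.24% to 13.7%). Groups did not overlap for 4 to 7 higher genes (7 without 3%-Axitinib replicate 2) and for 1 to 2 lower genes (2 without 0%-Axitinib replicate 3, Nr3c1 and Sgk1) with 1 sample left out, against 17.2% to 26.6% (higher) and 18.9% to 27.5% (lower) of all tested genes.

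Over all tested genes, 948 were higher and 880 lower by the criterion with the muscle covariate, 2345 were higher without both low libraries, and 1055 to 2274 were higher with 1 sample left out (2274 without 0%-Axitinib replicate 3). Total counts shifted the median log2 fold change of all tested genes from -0.03 to -0.16 and the share of higher genes among those meeting the criterion from 44.9% to 29.1%. The number of adjusted calls was 1703 with DESeq2's Wald test, 15 with no filter, 0 with the muscle covariate, 1572 without both low libraries, and 0 to 1252 with 1 sample left out (1252 without 0%-Axitinib replicate 3, 58 without 3%-Axitinib replicate 2). Of the other glucocorticoid-induced genes, 2 of 26 met the criterion as lower with total counts (16.0% of all tested genes), 1 with no filter (9.44%) and 0 to 3 with 1 sample left out (8.24% to 13.7%). The causes were not tested. Of 195 medians of the other lists, 21 moved by more than the SD between replicates.

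Samples with the same number did not deviate together (correlations 0.182, -0.115 and -0.174), so the numbers were not taken to pair samples. With the replicate block, 4 of the 10 genes met the criterion as higher (Glul did not, 8.19% of all tested genes did) and 1 as lower (Nr3c1, 8.87%), and 2 of all tested genes had an adjusted p of at most 0.05. None of the 10 genes was near the limit of detection. The unmapped share was larger in all 3%-Axitinib libraries than in any 0%-Axitinib library.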

Other observations

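Of 13 immediate early and heat shock genes, 1 met the criterion as higher (9.54% of all tested genes did) and 0 as lower (11.7%). The median log2 fold change was 0.08, with 0.20 without 0%-Axitinib replicate 1, -0.08 without 3%-Axitinib replicate 1 and -0.26 with the muscle covariate. The higher gene was Hspb1, a small heat shock protein gene, at 42.1, 33.8 and 16.1 CPM in the 0%-Axitinib samples and at 268, 74.0 and 116 CPM in the 3%-Axitinib samples. With edgeR, 0 of the 13 had an adjusted p of at most 0.05. Keratinocyte markers were by far highest in 0%-Axitinib replicate 2, where the 7 genes summed to 907 CPM and Krt1, the most abundant, was at 272 CPM, against sums between 4.17 and 8.33 CPM in the other 5 libraries. Fth1, the ferritin heavy chain, named after its values were seen, was the most abundant gene of the metal list, at 4459.9, 5442 and 2157 CPM without drug and at 7142, 8616 and 9803 CPM with it. Its groups did not overlap, and its log2 fold change was 1.08 ± 0.46 (SE), or 2.12-fold. It fell just short of the criterion, with an unadjusted p of 0.05001 (edgeR quasi-likelihood test).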
